A study of Mus musculus with 8 samples.

Results

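Genes of checkpoint and costimulatory ligands were described in the myeloid cells of E0771 mammary tumors. They were *Cd274* (PD-L1), *Pdcd1lg2* (PD-L2), *Cd80*, *Cd86*, *Icosl*, *Tnfsf9* (4-1BB ligand), *Vsir* (VISTA), *Lgals9* (galectin-9), *Pvr* (CD155) and *Nectin2* (CD112), chosen by name as 10 of the 32285 genes counted. Myeloid cells were taken as 4 classes by marker genes that include none of these 10: monocytes, macrophages with at least 10 unique molecular identifiers (UMIs, counted RNA molecules) of *C1qa*, *Cd209a*+ dendritic cells and *Ccr7*+ dendritic cells.

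Ligands of this kind meet a T cell at the same contact as the antigen and set how the T cell answers it. CD80 and CD86 supply costimulation through CD28 and are captured by CTLA-4, PD-L1 and PD-L2 engage the inhibitory receptor PD-1, and CD155 and CD112 are shared between the activating receptor CD226 and the inhibitory receptor TIGIT. Dendritic cells raise many of them when they mature and take up *Ccr7*, the chemokine receptor that leads them to lymph nodes, and tumor macrophages are a known source of PD-L1.

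E0771 is a mouse mammary cancer line that the study grew in the mammary fat pad of female C57BL/6 mice, and E0771-Res1 and E0771-Res2 are each 1 cell line that the study raised from E0771 tumors that came back after paclitaxel and anti-PD-1 antibody. All tumors were taken 18 days after implantation, 1 tumor per mouse, and neither the labels nor the methods state a treatment, an allele or an age for these mice, all of which received cells of the E0771 lineage. CD45+ cells of each mouse were tagged, pooled and sequenced together with a droplet 3′ assay. The values rest on 2 parental, 3 E0771-Res1 and 3 E0771-Res2 mice, and the parental mouse numbered 2 was not analysed here.

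Of 11430 deposited cells, 10605 were kept, those in which 500 to 6000 genes were seen and the mitochondrial share of UMIs was below 10%, and no cell barcode was shared between mice. They comprised 4476 monocytes (302 to 787 per mouse), 2055 macrophages (90 to 504), 145 *Cd209a*+ dendritic cells (9 to 35) and 233 *Ccr7*+ dendritic cells (8 to 54). Of markers that were not used to select the classes, the 6 macrophage markers summed to 13904 to 20167 CPM (counts scaled to a common library total) in macrophages against 2030 to 2915 CPM in monocytes. The 5 monocyte markers summed to 2938 to 4863 CPM in monocytes, 919 to 1842 CPM in macrophages and 5235 to 6579 CPM in *Cd209a*+ dendritic cells. In these markers monocytes exceeded macrophages but were below *Cd209a*+ dendritic cells. *Ccr7*+ dendritic cells held 1410 to 4088 CPM of them, a range that overlapped with those of monocytes and macrophages. Conventional dendritic cell markers summed to 433 to 905 CPM in *Cd209a*+ and 215 to 378 CPM in *Ccr7*+ dendritic cells against 24.7 to 46.0 CPM in monocytes. The 6 markers of mature dendritic cells reached 7742 to 21534 CPM in *Ccr7*+ dendritic cells, against at most 1837 CPM in monocytes and macrophages. E0771-Res2 cells were shallower: the median macrophage held 6860 to 8743 UMIs in E0771-Res2 mice, 9845 and 9944 in parental mice and 9992 to 11362 in E0771-Res1 mice.

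*Cd274* and *Pdcd1lg2* lie side by side on chromosome 19 of GRCm38, at chr19:29367455-29388095 and chr19:29410919-29471161 on the plus strand, with 22823 bases between them. *Pvr* (chr7:19903578-19921160) and the related *Nectin2* (chr7:19716644-19750483) lie 153094 bases apart on the minus strand of chromosome 7. *Cd80* (chr16:38455561-38496335, plus) and *Cd86* (chr16:36603869-36666081, minus) share chromosome 16 at a distance of 1789479 bases. The others stand apart, *Vsir* at chr10:60346851-60372684 (plus), *Icosl* at chr10:78069302-78083913 (plus), *Lgals9* at chr11:78962974-78984946 (minus) and *Tnfsf9* at chr17:57105325-57107757 (plus). All are protein-coding genes in GENCODE M21. On the opposite strand, *Vsir* overlaps *Cdh23*, *Cd274* overlaps AC119228.1 and *Pdcd1lg2* overlaps A930007I19Rik, and *Pvr*, *Nectin2* and *Tnfsf9* overlap unnamed gene models. The strand setting of the count is not given in the sources used here, so reads of these pairs may not be separable.

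RefSeq promoters of GRCm38.p6 were given for 7 of the 10 genes, the exceptions being *Cd86*, *Pvr* and *Tnfsf9*. Windows of 250 bases before to 50 bases after the start were searched on both strands for letters bound by factors that act on several of these genes: the GAS element of STAT proteins (TTCNNNGAA, in 8.30% of 32851 promoters), the core of the interferon-stimulated response element (GAAA, any 2 bases, GAAA, 3.44%) and the NF-kB site (4.51%). A match describes letters only. The 250 bases before the start are shown for the *Cd274* and *Pdcd1lg2* neighbors, which were both highest in *Ccr7*+ dendritic cells, and for *Lgals9*, which had its lowest median there. Capitals mark the NF-kB match of *Pdcd1lg2*, whose first base is at position -244 from the start, and the interferon element match of *Lgals9* at position -55, which reads on the opposite strand. *Lgals9* held a second such match at position 15 after the start, outside the bases shown, and the windows of *Cd274*, *Cd80*, *Vsir*, *Nectin2* and *Icosl* held none of the 3 motifs.
Cd274, chr19:29367188-29367437, plus strand: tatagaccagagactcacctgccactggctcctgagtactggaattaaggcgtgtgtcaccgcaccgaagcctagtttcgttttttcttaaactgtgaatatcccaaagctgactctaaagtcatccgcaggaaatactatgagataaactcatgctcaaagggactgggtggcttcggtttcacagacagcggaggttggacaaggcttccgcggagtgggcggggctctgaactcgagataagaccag
Pdcd1lg2, chr19:29410669-29410918, plus strand: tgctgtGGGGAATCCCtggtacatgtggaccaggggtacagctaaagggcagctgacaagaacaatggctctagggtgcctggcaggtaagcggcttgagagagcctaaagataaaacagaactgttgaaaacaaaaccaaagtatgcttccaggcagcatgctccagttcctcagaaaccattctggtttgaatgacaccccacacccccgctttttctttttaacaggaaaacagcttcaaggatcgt
Lgals9, chr11:78984925-78985174, minus strand: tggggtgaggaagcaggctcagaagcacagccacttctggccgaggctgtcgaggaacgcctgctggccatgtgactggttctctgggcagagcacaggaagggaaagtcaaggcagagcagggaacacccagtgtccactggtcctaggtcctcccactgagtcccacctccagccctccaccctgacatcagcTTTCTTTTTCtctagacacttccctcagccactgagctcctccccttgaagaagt

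Monocytes and macrophages, the most numerous classes, held most of the ligand RNA. Monocytes held 48.1% ± 5.05 (SD, n = 8) of the *Cd274* UMIs in kept cells and macrophages 20.6% ± 2.83, whereas *Ccr7*+ dendritic cells held 5.10% ± 2.08. The share of *Ccr7*+ dendritic cells ranged from 0.788% ± 0.354 for *Lgals9* to 13.4% ± 8.70 for *Icosl*, although these cells were 2.20% of kept cells. *Vsir* was the gene with the largest macrophage share, 32.9% ± 5.35, and *Lgals9* the one with the largest monocyte share, 53.8% ± 7.20. Cells that carried T cell transcripts held a further part, and 74.8% of the 1582 cells taken by the T cell gate also carried more than 6 UMIs over 4 myeloid genes.

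**Figure D1:**
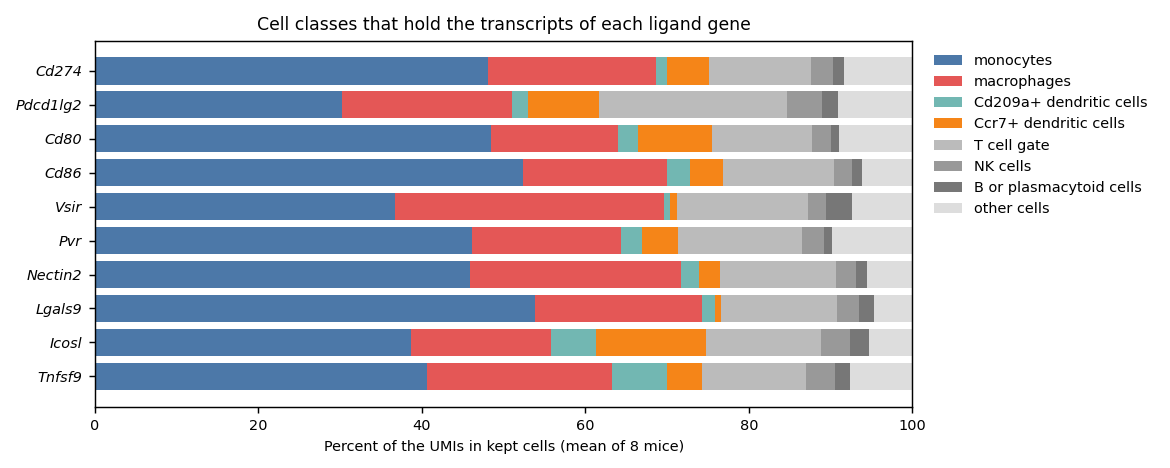
Horizontal bars give, for each ligand gene, the percentage of its UMIs in kept cells that each cell class held, as the mean of 8 mice. Monocytes held the largest part of every gene, from 30.3% of *Pdcd1lg2* to 53.8% of *Lgals9*.

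Levels are given below as CPM, the UMIs of a gene scaled to the UMIs of all genes kept, summed over the cells of a class in a mouse. A 3′ assay does not allow levels of different genes to be ranked, so each gene was compared only with itself across classes and tumors. As a reference that includes free RNA, each gene was also read in 398 T cells with at most 6 UMIs over 4 myeloid genes, whose median depth was 3003 to 6944 UMIs per mouse against 5561 to 7954 in monocytes and 6860 to 11362 in macrophages. The limit on myeloid genes selects cells with little myeloid RNA, so this reference may understate free and admixed RNA. Shares of positive cells were computed as if each cell had been thinned to 2000 UMIs, and cells under 2000 UMIs were left out. Thinned shares thus refer to the deeper cells of a class, and unthinned shares to all of its cells. Without thinning, the median cell held UMIs of 3 of the 10 genes in monocytes and in macrophages and of 4 in both dendritic cell classes.

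*Cd274*, the main ligand of PD-1, was highest in *Ccr7*+ dendritic cells, intermediate in monocytes and macrophages and lowest in *Cd209a*+ dendritic cells. Its level had a lowest, median and highest mouse at 256, 404 and 518 CPM in *Ccr7*+ dendritic cells. In monocytes it ran over 180.0, 219.8 and 258 CPM, in macrophages over 124, 164 and 239 CPM, and in *Cd209a*+ dendritic cells over 72, 127 and 197 CPM. The ranges of the last 3 classes overlapped, and that of *Ccr7*+ dendritic cells met that of monocytes at its lower end only. Over the mice with at least 10 cells in both classes, *Ccr7*+ dendritic cells exceeded *Cd209a*+ dendritic cells by a log2 fold change of 1.78 (SE 0.21, adjusted p = 1.69e-08) and macrophages by 1.42 (SE 0.15, adjusted p = 2.32e-10), both higher in 6 of 6 mice (edgeR quasi-likelihood test with mouse as a block, Benjamini-Hochberg adjustment over all genes). Macrophages were lower than monocytes over all mice (log2 fold change -0.51, SE 0.11, edgeR adjusted p = 2.17e-04), with 2 of 8 mice going the other way. These were both parental mice, at 239 and 203.5 CPM in macrophages against 214 and 189 CPM in monocytes. Every mouse with a resistant tumor was lower in macrophages. Thinned to 2000 UMIs, 46.7% of *Ccr7*+ dendritic cells, 27.1% of monocytes, 22.0% of macrophages and 15.7% of *Cd209a*+ dendritic cells were positive as means of 8 mice, against 8.91% of the T cells, and the unthinned means were 86.6%, 54.0%, 57.2%, 46.3% and 21.0%.

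*Pdcd1lg2*, the other PD-1 ligand, was highest in *Ccr7*+ dendritic cells, whose range overlapped with that of the T cells. It reached 36.6, 84.3 and 124 CPM (lowest, median, highest mouse) in *Ccr7*+ dendritic cells, but 10.8, 16.4 and 22.0 CPM in monocytes and 12.9, 19.5 and 24.1 CPM in macrophages. In *Cd209a*+ dendritic cells it rested on 20 UMIs in all, with 0 UMIs in 1 E0771-Res2 mouse, which allows up to 21.3 CPM there (3 counts), and at most 49.4 CPM in another mouse. The T cells gave 17.9, 43.0 and 85.7 CPM, so the level in monocytes and macrophages lay within or below what the T cells showed. The T cells, at a mean of 44.9 CPM, were themselves above the 22.2 CPM mean of all kept cells, so they are no measure of free RNA alone for this gene. Their own transcripts, admixed cells and free RNA were not told apart. These values do not show whether monocytes and macrophages express the gene. The same held for the share of positive cells after thinning, 2.68% of monocytes and 3.32% of macrophages against 5.94% of the T cells and 12.8% of *Ccr7*+ dendritic cells (unthinned 7.72%, 13.2%, 16.7% and 35.7%). *Ccr7*+ dendritic cells exceeded *Cd209a*+ dendritic cells by 2.30 on the log2 scale (SE 0.38, edgeR adjusted p = 9.10e-06) and macrophages by 2.19 (SE 0.23, edgeR adjusted p = 4.44e-10), in 6 of 6 mice each.

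*Cd80* and *Cd86*, the CD28 ligands, were both lower in macrophages than in monocytes and both higher in *Ccr7*+ dendritic cells than in macrophages. *Cd80* stood at 91.6, 148 and 210.3 CPM (lowest, median, highest mouse) in *Ccr7*+ dendritic cells, 33.2, 49.3 and 67.0 CPM in monocytes, 19.9, 25.2 and 47.0 CPM in macrophages and 28.4, 51.3 and 98.7 CPM in *Cd209a*+ dendritic cells. *Cd86* stood at 223, 310.3 and 428 CPM in *Cd209a*+ and at 201, 359.8 and 401 CPM in *Ccr7*+ dendritic cells, and had lower medians in monocytes (208, 258 and 297 CPM) and macrophages (122, 147.5 and 200.2 CPM). The ranges of *Cd86* overlapped between both dendritic cell classes and monocytes, whereas the *Cd80* range of *Ccr7*+ dendritic cells lay above those of monocytes and macrophages. Between *Ccr7*+ and *Cd209a*+ dendritic cells the log2 fold change was 1.85 for *Cd80* (SE 0.24, edgeR adjusted p = 1.26e-07) and 0.33 for *Cd86* (SE 0.14, edgeR adjusted p = 0.0653), and *Cd86* did not pass the threshold, although it was higher in 5 of 6 mice and DESeq2 called it. The difference between the genes was not tested. *Ccr7*+ dendritic cells exceeded macrophages by 2.75 for *Cd80* (SE 0.17, edgeR adjusted p = 2.93e-16) and 1.40 for *Cd86* (SE 0.11, edgeR adjusted p = 5.01e-13), in 6 of 6 mice each. Both were lower in macrophages than in monocytes, *Cd80* by a log2 fold change of -0.92 (SE 0.11, edgeR adjusted p = 2.68e-08) and *Cd86* by -0.87 (SE 0.08, edgeR adjusted p = 6.58e-11), in 8 of 8 mice each. After thinning, 31.3% of monocytes and 20.5% of macrophages were *Cd86* positive (unthinned 63.5% and 56.7%), against 9.52% of the T cells (unthinned 23.1%). *Cd80* stood closer to that reference, with 8.09% of monocytes, 4.77% of macrophages and 3.88% of the T cells positive (unthinned 22.9%, 18.5% and 8.44%), and the T cells gave 0, 21.2 and 46.5 CPM, a range that covered all but 1 of the 8 macrophage levels.

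*Icosl* and *Tnfsf9*, whose proteins bind the costimulatory receptors ICOS and 4-1BB, were the ligands called higher in *Cd209a*+ dendritic cells than in monocytes. *Icosl* stood at 15.3, 18.1 and 21.6 CPM (lowest, median, highest mouse) in monocytes and 9.96, 13.7 and 20.9 CPM in macrophages, but at 24.7, 65.5 and 117 CPM in *Cd209a*+ and 18.3, 93.5 and 219 CPM in *Ccr7*+ dendritic cells. Its log2 fold change of *Ccr7*+ dendritic cells over macrophages, 3.47 (SE 0.22, edgeR adjusted p = 1.01e-15), was the largest of the 9 ligands that could be tested, and *Cd209a*+ dendritic cells exceeded monocytes by 2.02 (SE 0.28, edgeR adjusted p = 4.24e-07) in 7 of 7 mice. *Tnfsf9* peaked in *Cd209a*+ dendritic cells, with 135, 279.6 and 321 CPM, followed by *Ccr7*+ dendritic cells with 37.9, 123 and 154 CPM. It was 1.80 higher on the log2 scale in *Cd209a*+ dendritic cells than in monocytes (SE 0.19, edgeR adjusted p = 2.59e-09, 7 of 7 mice) and lower in *Ccr7*+ than in *Cd209a*+ dendritic cells (log2 fold change -0.71, SE 0.23, edgeR adjusted p = 0.0180, lower in 6 of 6 mice). Monocytes and macrophages did not differ detectably in *Tnfsf9* over all mice (log2 fold change -0.15, SE 0.12, edgeR adjusted p = 0.335). Macrophages were higher in both parental mice, at 94.4 and 90.0 CPM against 63.2 and 58.1 CPM, and lower in every mouse with a resistant tumor. The T cells held 34.8 CPM of *Tnfsf9* and 8.47 CPM of *Icosl* on average. Their *Icosl* range, 0 to 37.2 CPM, covered every mouse's monocytes and macrophages. Their *Tnfsf9* range, 8.96 to 55.7 CPM, covered part of the monocyte and macrophage levels. The part of free RNA in these levels was not tested.

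*Vsir*, an inhibitory ligand typical of monocytes and macrophages, and *Lgals9*, a lectin that binds TIM-3, had their lowest medians in *Ccr7*+ dendritic cells. *Vsir* stood at 221, 273 and 306 CPM (lowest, median, highest mouse) in macrophages, above the 151, 164 and 193 CPM of monocytes without overlap. It was lower still in *Cd209a*+ (41.1, 66.3 and 128 CPM) and *Ccr7*+ dendritic cells (39.1, 60.3 and 126 CPM), whose ranges overlapped. Between these 2 classes *Vsir* did not differ detectably (log2 fold change -0.23, SE 0.23, edgeR adjusted p = 0.494). *Vsir* was the only 1 of the 9 tested ligands called higher in macrophages than in monocytes (log2 fold change 0.58, SE 0.07, edgeR adjusted p = 1.57e-08, 8 of 8 mice). *Lgals9* was highest in monocytes, at 233, 281 and 319 CPM, against 172, 184 and 229.6 CPM in macrophages, and lowest in *Ccr7*+ dendritic cells, at 19.6, 64.0 and 183 CPM. *Ccr7*+ dendritic cells were lower than *Cd209a*+ dendritic cells for *Lgals9* (log2 fold change -1.45, SE 0.20, edgeR adjusted p = 2.18e-07) and lower than macrophages for *Vsir* (log2 fold change -2.09, SE 0.15, edgeR adjusted p = 7.30e-15), in 6 of 6 mice each. The T cells held 115 CPM of *Vsir* and 134.5 CPM of *Lgals9* on average, which exceeded both levels in *Ccr7*+ dendritic cells.

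*Pvr* and *Nectin2*, the ligands of CD226 and TIGIT, were sparse. *Pvr* ran over 27.4, 38.5 and 45.7 CPM (lowest, median, highest mouse) in monocytes and 18.6, 25.8 and 39.2 CPM in macrophages, and had a median of 40.2 CPM in *Cd209a*+ and 61.7 CPM in *Ccr7*+ dendritic cells, with 0 UMIs in the 8 *Ccr7*+ dendritic cells of 1 E0771-Res1 mouse, which allows up to 54.9 CPM. The T cells gave 7.88, 15.5 and 47.3 CPM, a range that covered every mouse's monocytes and macrophages. After thinning, 6.11% of monocytes, 4.43% of macrophages and 3.11% of the T cells were *Pvr* positive (unthinned 18.7%, 17.8% and 7.00%). *Pvr* was lower in macrophages than in monocytes (log2 fold change -0.63, SE 0.10, edgeR adjusted p = 1.14e-06, 8 of 8 mice) and 1.61 higher in *Ccr7*+ dendritic cells than in macrophages (SE 0.17, edgeR adjusted p = 4.35e-10, 6 of 6 mice). *Nectin2* gave 145 UMIs in all monocytes, 90 in macrophages, 14 in *Ccr7*+ and 7 in *Cd209a*+ dendritic cells, with at most 7.90 CPM in any mouse's monocytes and 7.39 CPM in its macrophages. It did not pass the filter on low counts in the comparison of classes and is given no fold change there.

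**Figure D2:**
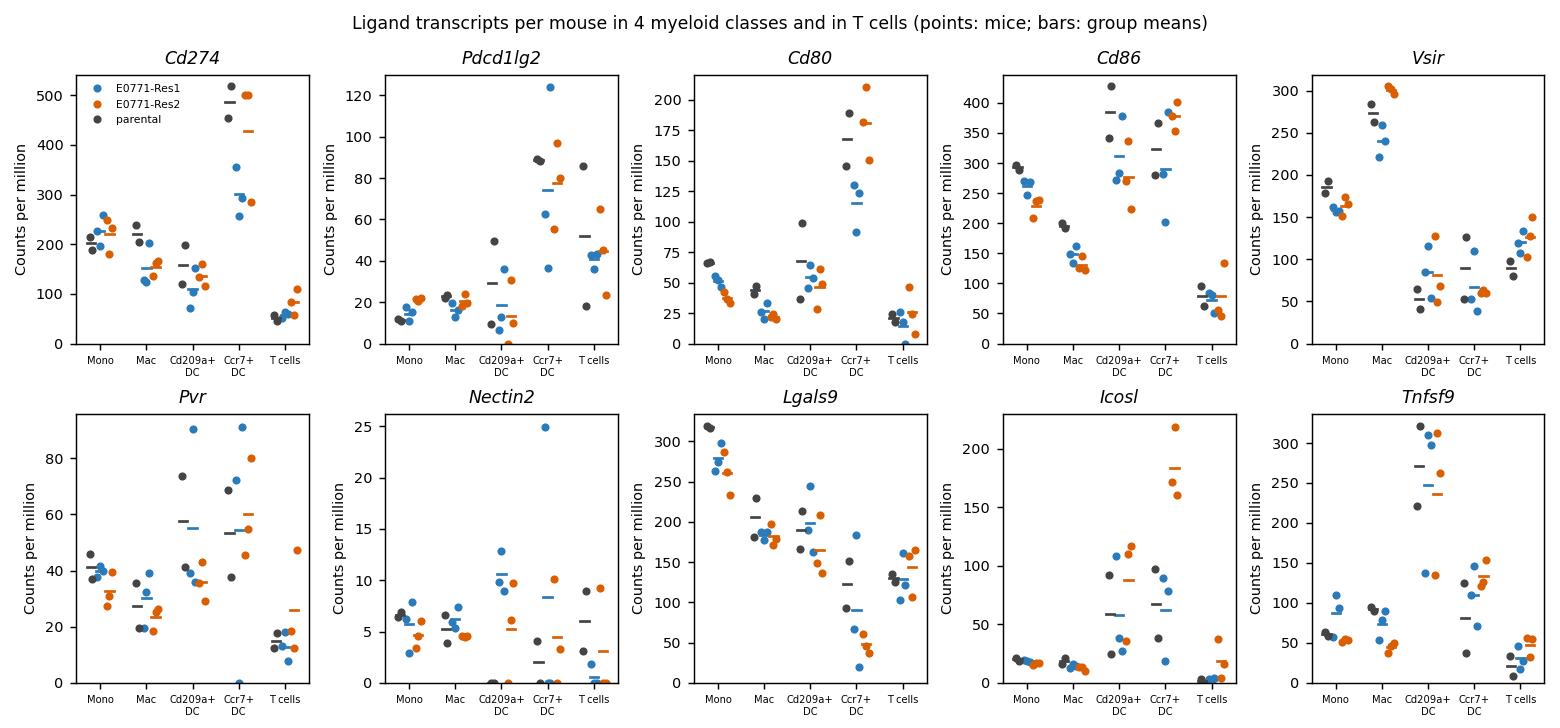
Points give the CPM of each ligand gene in each mouse for monocytes (Mono), macrophages (Mac), *Cd209a*+ and *Ccr7*+ dendritic cells (DC) and the T cells with few myeloid transcripts, in gray for parental, blue for E0771-Res1 and orange for E0771-Res2 tumors, and bars give group means. All mice are drawn, including those with 8 or 9 dendritic cells of a class, and each axis starts at 0. *Cd274*, *Pdcd1lg2*, *Cd80*, *Cd86*, *Icosl* and *Pvr* have their highest medians in *Ccr7*+ dendritic cells. Except for *Cd274*, the ranges of these genes overlap between both dendritic cell classes. *Tnfsf9* has its highest median in *Cd209a*+ dendritic cells, *Vsir* in macrophages and *Lgals9* in monocytes.

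Counted over the list, 7 of 9 tested ligands differed between macrophages and monocytes, 1 higher and 6 lower in macrophages, where 48.5% of all 8997 tested genes were called (23.9% higher, 24.6% lower). Between *Ccr7*+ and *Cd209a*+ dendritic cells 5 were higher and 2 lower, against 31.4% of all genes called (17.1% higher, 14.3% lower). *Cd209a*+ dendritic cells differed from monocytes in 5 (2 higher, 3 lower), against 22.7% of all genes (9.35% higher, 13.3% lower). *Ccr7*+ dendritic cells differed from macrophages in all 9 that were tested, 7 higher and 2 lower, where 46.9% of all genes were called (22.6% higher, 24.3% lower). The median log2 fold change of the tested ligands in this last comparison was 1.42, against -0.09 over all genes. A large part of all genes was called in each comparison, which sets the measure for these counts. The *Ccr7*+ dendritic cells also held 756 to 3839 CPM of the 6 macrophage markers, whose part in these differences was not tested.

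**Figure D3:**
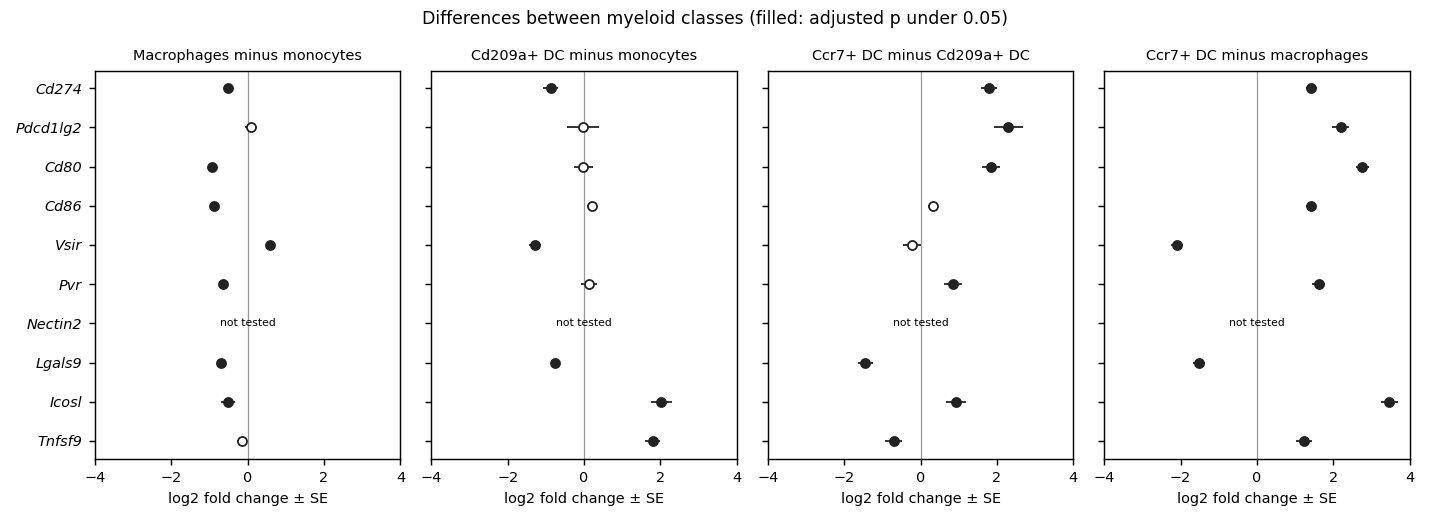
Points give the log2 fold change of each ligand gene between myeloid classes, filled where the edgeR adjusted p is under 0.05. Bars give a standard error derived from the F statistic of edgeR with mouse as a block. Filled points of *Cd274*, *Pdcd1lg2*, *Cd80*, *Icosl* and *Pvr* lie to the right in both comparisons of *Ccr7*+ dendritic cells. Those of *Lgals9* lie to the left, while *Nectin2* was not tested.

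A further list of 30 genes held mostly other ligands of this kind, but also genes such as *Ido1*, an enzyme, and *Sirpa*, the receptor of CD47. Of 21 tested in *Ccr7*+ dendritic cells against macrophages, 13 were higher and 4 lower, where 22.6% of all genes were called higher and 24.3% lower. The largest log2 fold changes were 6.91 for *Cd70* (SE 0.59, edgeR adjusted p = 1.63e-12), the ligand of CD27, 6.74 for *Tnfsf4* (SE 0.44, edgeR adjusted p = 3.33e-15), the ligand of OX40, and 5.52 for *Cd200* (SE 0.27, edgeR adjusted p = 3.08e-19), whose receptor restrains myeloid cells. Fitted values of genes scarce in macrophages depend on the prior count and are no bounds. *Cd276* (B7-H3) was lower in *Ccr7*+ dendritic cells, at -3.31 (SE 0.46, edgeR adjusted p = 1.55e-07). Regulators of the transcription or turnover of these ligands were listed as 19 symbols, which name *March1* and *March8* by old and new symbols. Of 16 tested in the same comparison, 9 were higher and 4 lower. Among the higher ones were *Relb* at 3.90 (SE 0.11, edgeR adjusted p = 3.10e-26), an NF-kB subunit, and *Jak2* at 2.95 (SE 0.11, edgeR adjusted p = 1.84e-23), a kinase of interferon gamma receptor signaling. *March1*, a ubiquitin ligase known to remove CD86 from the surface, was lower, at -2.51 (SE 0.28, edgeR adjusted p = 1.40e-09). Against monocytes, macrophages were lower in 11 and higher in 2 of the 16 regulators and lower in 10 and higher in 4 of the 21 genes of the further list, where 24.6% of all genes were called lower and 23.9% higher, with *Jak2* at -1.07 (SE 0.08, edgeR adjusted p = 7.53e-14) and *Ceacam1*, an adhesion molecule, at -2.23 (SE 0.17, edgeR adjusted p = 3.98e-13).

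The receptors of these ligands were read in the same T cells. *Cd28* was detected in 63.1%, *Ctla4* in 60.7%, *Icos* in 56.7%, *Tnfrsf9* (4-1BB) in 42.7%, *Havcr2* (TIM-3) in 36.5% and *Pdcd1* (PD-1) in 34.0% of them, as unthinned means of 8 mice. *Havcr2* was also detected in 44.3% of macrophages and 39.2% of monocytes, and *Tnfrsf9* in 16.7% of *Ccr7*+ dendritic cells against 2.05% of macrophages. These unthinned shares move with depth. After thinning, *Havcr2* was positive in 16.3% of the T cells, 15.9% of monocytes and 13.3% of macrophages, so the order changed. For *Tnfrsf9* the thinned shares were 5.49% of *Ccr7*+ dendritic cells and 0.485% of macrophages.

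Within single cells, *Cd274* was found in 89.7% of the 136 *Ccr7*+ dendritic cells with *Cd80* and in 73.2% of those without it. *Vsir* went the other way in monocytes, with *Cd274* in 52.6% of *Vsir* positive and 56.5% of *Vsir* negative cells. These shares pool the cells of all mice, and cells with more UMIs are more often positive for both genes of a pair, so they are given as a description.

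Across 29 sums of a class and mouse, the 5 genes whose log2 CPM ran most like *Cd274* were *Krit1* (Pearson r = 0.90), *Chpt1* (0.89), *Gadd45b* (0.89), *H2-D1* (0.87) and *Arl5c* (0.86), among 7878 genes. For *Cd86* the 5 included *Tes*, *Gpr132*, *Glipr2* and *Ube2l6* (all r = 0.92). The points share mice and differ in cell number and depth between classes, so these values describe likeness across the 4 classes and carry no test.

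The tumor lines were compared next, to ask whether the ligands on macrophages and monocytes differ between parental and relapse-derived tumors. In macrophages, *Cd80*, *Cd86* and *Tnfsf9* were lower in E0771-Res2 than in parental tumors. *Cd80* stood at 40.9 and 47.0 CPM in the parental mice, at 26.3, 20.4 and 33.3 CPM in the E0771-Res1 mice and at 21.7, 24.1 and 19.9 CPM in the E0771-Res2 mice, against 0 to 46.5 CPM in the T cells. The E0771-Res2 mean, 21.9 CPM, was near the T cell mean of 20.7 CPM, and the part of free RNA in these levels was not tested. Both parental mice lay above all 6 mice with resistant tumors, and the resistant lines overlapped. The log2 fold change of E0771-Res2 over parental was -1.0 (SE 0.21, edgeR adjusted p = 0.0260) and that of E0771-Res1 was -0.70 (SE 0.21, edgeR adjusted p = 0.186).

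*Cd86* was 200.2 and 192 CPM in macrophages of the parental mice, 149.6, 133 and 163 CPM in E0771-Res1 and 125, 146 and 122 CPM in E0771-Res2. Parental and resistant mice again did not overlap. The log2 fold change was -0.61 for E0771-Res2 (SE 0.12, edgeR adjusted p = 0.0208), -0.42 for E0771-Res1 (SE 0.12, edgeR adjusted p = 0.183) and -0.51 for the mean of both lines over parental (SE 0.11, edgeR adjusted p = 0.0448). *Tnfsf9* was 94.4 and 90.0 CPM in the parental mice, 53.8, 78.4 and 90.2 CPM in E0771-Res1 and 37.8, 45.7 and 49.4 CPM in E0771-Res2. The E0771-Res2 mice lay below every other mouse, and E0771-Res1 reached the parental level in 1 mouse. The T cells spanned 8.96 to 55.7 CPM of *Tnfsf9*, which covered every E0771-Res2 macrophage level and the lowest E0771-Res1 level. The log2 fold change of E0771-Res2 over parental was -1.09 (SE 0.21, edgeR adjusted p = 0.0157), and that over E0771-Res1 was -0.67 (SE 0.19, edgeR adjusted p = 0.0759).

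In all, 3 of 10 ligands were called lower and none higher in E0771-Res2 against parental macrophages, where 2.08% of 8874 genes were called (1.36% lower), and DESeq2 called the same 3. None of the 10 was called between E0771-Res1 and parental macrophages (0.135% of genes called, 3 ligands at an unadjusted p under 0.05, 0 by DESeq2, which gave no adjusted p for 5 of the 10) or between the resistant lines (2.6% of genes called, 2 ligands at an unadjusted p under 0.05, 0 by DESeq2, with 1 given no adjusted p). Over all 8874 genes, 1013 and 1388 had an edgeR unadjusted p under 0.05 in these comparisons, in this order. With both resistant lines against parental, *Cd86* was the 1 ligand called (0.856% of genes, 0.665% lower), and this call was lost in 11 of 18 alternatives. The median log2 fold change of the 10 ligands was -0.46 for E0771-Res2 and -0.40 for E0771-Res1 over parental, against 0.00 over all genes in both. It was -0.31 and -0.25 for the further list of 30 genes and -0.31 and -0.30 for the regulators. A median below that of all genes was thus not particular to the 10 ligands. Leaving out either parental mouse or the E0771-Res2 mouse with replicate number 1 ended all 3 calls, and leaving out E0771-Res2 replicate 3 left 1. Without the removal of cells with lymphoid transcripts, *Cd86* alone was called in macrophages.

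*Cd274* in macrophages was 239 and 203.5 CPM in the parental mice, 128, 124 and 203.3 CPM in E0771-Res1 and 136, 162 and 166 CPM in E0771-Res2. It was lower in all 6 resistant mice than in the lower parental mouse, 1 of them being nearly equal to it. The log2 fold changes over parental, -0.59 for E0771-Res1 (SE 0.19, edgeR adjusted p = 0.225) and -0.55 for E0771-Res2 (SE 0.18, edgeR adjusted p = 0.159), did not pass the threshold. *Vsir* was 295.5 to 306 CPM in E0771-Res2 against 221 to 259 CPM in E0771-Res1 and 262 and 284 CPM in parental macrophages. Its difference between the resistant lines was 0.35 (SE 0.09, edgeR adjusted p = 0.0701). *Lgals9* differed by -0.16 in both lines over parental, and *Pvr*, *Nectin2*, *Icosl* and *Pdcd1lg2* by -0.56 to 0.10 without a call.

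In monocytes, *Cd80* and *Cd86* were again lower in E0771-Res2 than in parental tumors. *Cd80* was 66.0 and 67.0 CPM in the parental mice, 55.2, 52.3 and 46.3 CPM in E0771-Res1 and 42.5, 36.8 and 33.2 CPM in E0771-Res2, with no overlap between any of the 3 groups. The log2 fold change was -0.83 for E0771-Res2 over parental (SE 0.13, edgeR adjusted p = 0.00296) and -0.47 for E0771-Res2 over E0771-Res1 (SE 0.12, edgeR adjusted p = 0.0385). For E0771-Res1 over parental it was -0.36 (SE 0.13, edgeR adjusted p = 0.466). *Cd86* was 297 and 288.5 CPM in parental monocytes, 269.98, 247 and 269 CPM in E0771-Res1 and 208, 237 and 239 CPM in E0771-Res2, and the groups did not overlap. Its log2 fold change of E0771-Res2 over parental was -0.37 (SE 0.10, edgeR adjusted p = 0.0345).

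*Pdcd1lg2* was the only ligand called higher, at 11.9 and 10.8 CPM in parental, 17.7, 10.8 and 15.1 CPM in E0771-Res1 and 21.6, 20.8 and 22.0 CPM in E0771-Res2 monocytes. The log2 fold change of E0771-Res2 over parental was 0.89 (SE 0.21, edgeR adjusted p = 0.0226), from 65 UMIs in the parental and 249 in the E0771-Res2 mice, and DESeq2 did not call it. All of these values lie within or below the 17.9 to 85.7 CPM of the T cells, and the summed level of 6 mature dendritic cell markers in monocytes moved the same way, from 971 to 1328 CPM in parental over 1283 to 1489 CPM in E0771-Res1 to 1606 to 1837 CPM in E0771-Res2 mice. That list holds *Ccl5*, which T cells also express, and it summed to 1971 to 3584 CPM in the T cells. The part of free RNA and of admixed cells in this rise was not tested. *Tnfsf9* in monocytes was 63.2 and 58.1 CPM in parental, 57.0, 110.5 and 93.3 CPM in E0771-Res1 and 51.5, 54.6 and 53.1 CPM in E0771-Res2, and was lower in E0771-Res2 than in E0771-Res1 (log2 fold change -0.70, SE 0.18, edgeR adjusted p = 0.0418). For *Tnfsf9*, the E0771-Res2 monocyte levels lay within the 8.96 to 55.7 CPM of the T cells. *Cd274* in monocytes overlapped between all 3 groups, at 214 and 189 CPM, 226, 196 and 258 CPM, and 249.5, 180.0 and 232 CPM.

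In monocytes, then, 3 of 10 ligands were called between E0771-Res2 and parental tumors, where 4.98% of 9722 genes were called (2.24% higher, 2.74% lower), and 2 between E0771-Res2 and E0771-Res1, where 4.34% were called (2.08% lower). None was called between E0771-Res1 and parental monocytes (0.0309% of genes called, 3 ligands at an unadjusted p under 0.05, 0 by DESeq2, which gave no adjusted p for 6 of the 10). There, 830 of all 9722 genes had an edgeR unadjusted p under 0.05. For the mean of both lines over parental, *Cd80* was called at -0.59 (SE 0.12, edgeR adjusted p = 0.0324), against 0.823% of all genes (0.473% lower), and the call was lost in 5 of 18 alternatives. The median log2 fold change of the 10 ligands was -0.31 for E0771-Res2 over parental and 0.01 over all genes. It was -0.19 for the further list of 30 genes and -0.21 for the regulators. Of the calls in E0771-Res2 over parental monocytes, *Cd80* was lost in 1 of 19 alternatives, without parental replicate 1, while *Cd86* was lost in 5 and *Pdcd1lg2* in 6. The calls of *Cd80* and *Tnfsf9* between E0771-Res2 and E0771-Res1 were each lost in 11 of 19.

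**Figure D4:**
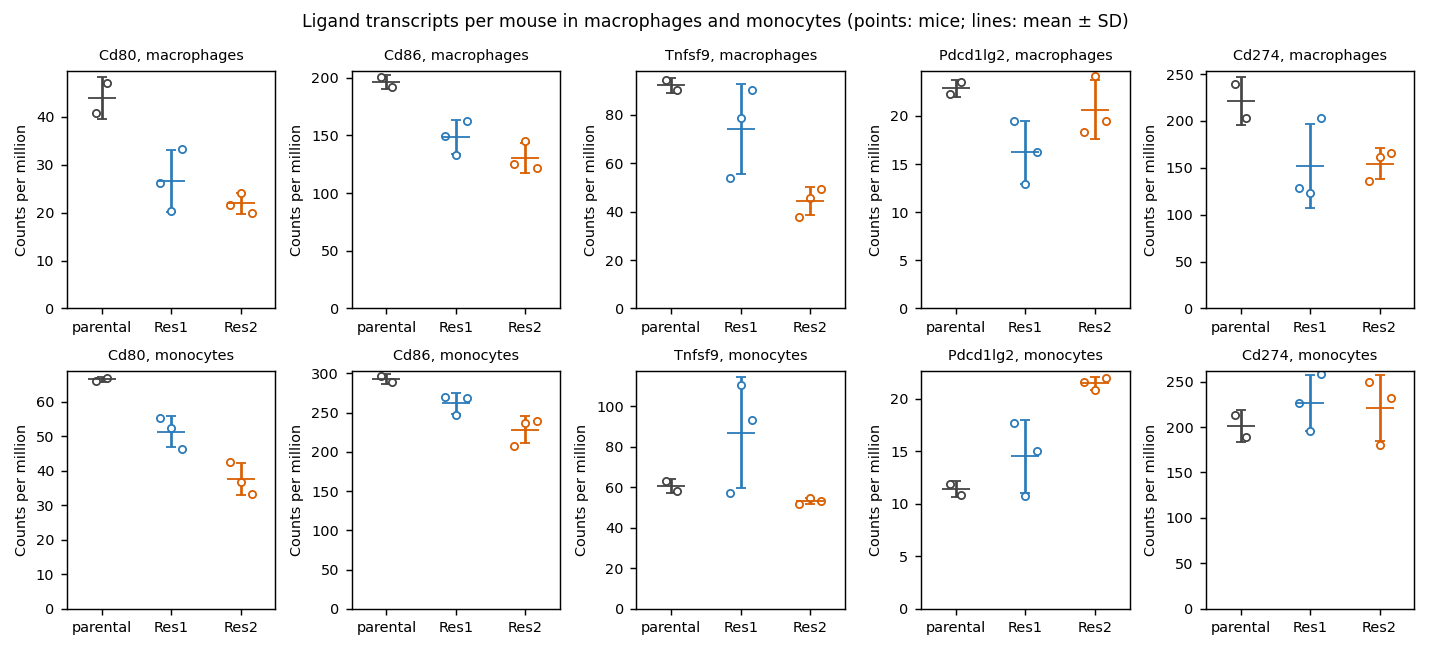
Points give the CPM per mouse of 5 ligand genes in macrophages (top) and monocytes (bottom) of parental, E0771-Res1 and E0771-Res2 tumors, and lines the mean ± SD of each group. *Cd80* is lowest in E0771-Res2 mice in monocytes and above all resistant mice in parental mice in both classes, and *Cd274* overlaps between groups in monocytes.

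The marker levels of both classes moved with the tumor lines. In macrophages the 6 macrophage markers summed to 13904 and 15213 CPM in the parental, 15233 to 20167 CPM in the E0771-Res1 and 19150 to 19915 CPM in the E0771-Res2 mice, and the 5 monocyte markers to 1338 and 1656, 1357 to 1842 and 919 to 1306 CPM. In monocytes the monocyte markers summed to 4534 and 4863 CPM in the parental, 4153 to 4809 CPM in the E0771-Res1 and 2938 to 4257 CPM in the E0771-Res2 mice. *Cd80* and *Cd86* are both lower in macrophages than in monocytes, and the part of a shift within each class in the difference between lines was not tested. With macrophages selected per 10000 UMIs rather than by a fixed UMI number, the 3 calls of E0771-Res2 over parental macrophages were kept. The same selection lost the call of *Cd86* for both lines over parental macrophages. It also lost the calls of *Cd80* and *Tnfsf9* between E0771-Res2 and E0771-Res1 monocytes.

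The line effect itself was then compared between macrophages and monocytes of the same mice. For *Tnfsf9*, the log2 fold change in macrophages minus that in monocytes was -0.90 for E0771-Res2 over parental (SE 0.19, edgeR adjusted p = 0.0420), where 0.316% of 9823 genes were called (0.295% lower), and -0.86 for both resistant lines together (SE 0.17, edgeR adjusted p = 0.0389), where 0.153% were called (0.143% lower). It was the 1 ligand called, and none was called for E0771-Res1 over parental (0.0509% of genes, 4 ligands at an unadjusted p under 0.05) or between the resistant lines (0.0204%, 1 ligand), with 0 by DESeq2 in each. Over all 9823 genes, 709 had an edgeR unadjusted p under 0.05 for E0771-Res1 over parental and 521 between the resistant lines. For *Cd274* the difference was -0.69 for E0771-Res2 over parental (SE 0.18, edgeR adjusted p = 0.123) and -0.75 for both resistant lines together (SE 0.16, edgeR adjusted p = 0.0666). *Pdcd1lg2* gave the largest differences of the ligands without a call, -1.09 for E0771-Res2 over parental (SE 0.30, edgeR adjusted p = 0.152) and -0.97 for both resistant lines together (SE 0.28, edgeR adjusted p = 0.219). Its levels in both classes lay within or below those of the T cells. *Cd80* and *Cd86* gave differences of -0.20 (SE 0.24) and -0.25 (SE 0.13) for E0771-Res2, and neither passed the threshold. The *Tnfsf9* calls were lost in 8 and 10 of 17 alternatives, among them DESeq2 and leaving out either parental mouse, E0771-Res2 replicate 1 or E0771-Res2 replicate 3.

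**Figure D5:**
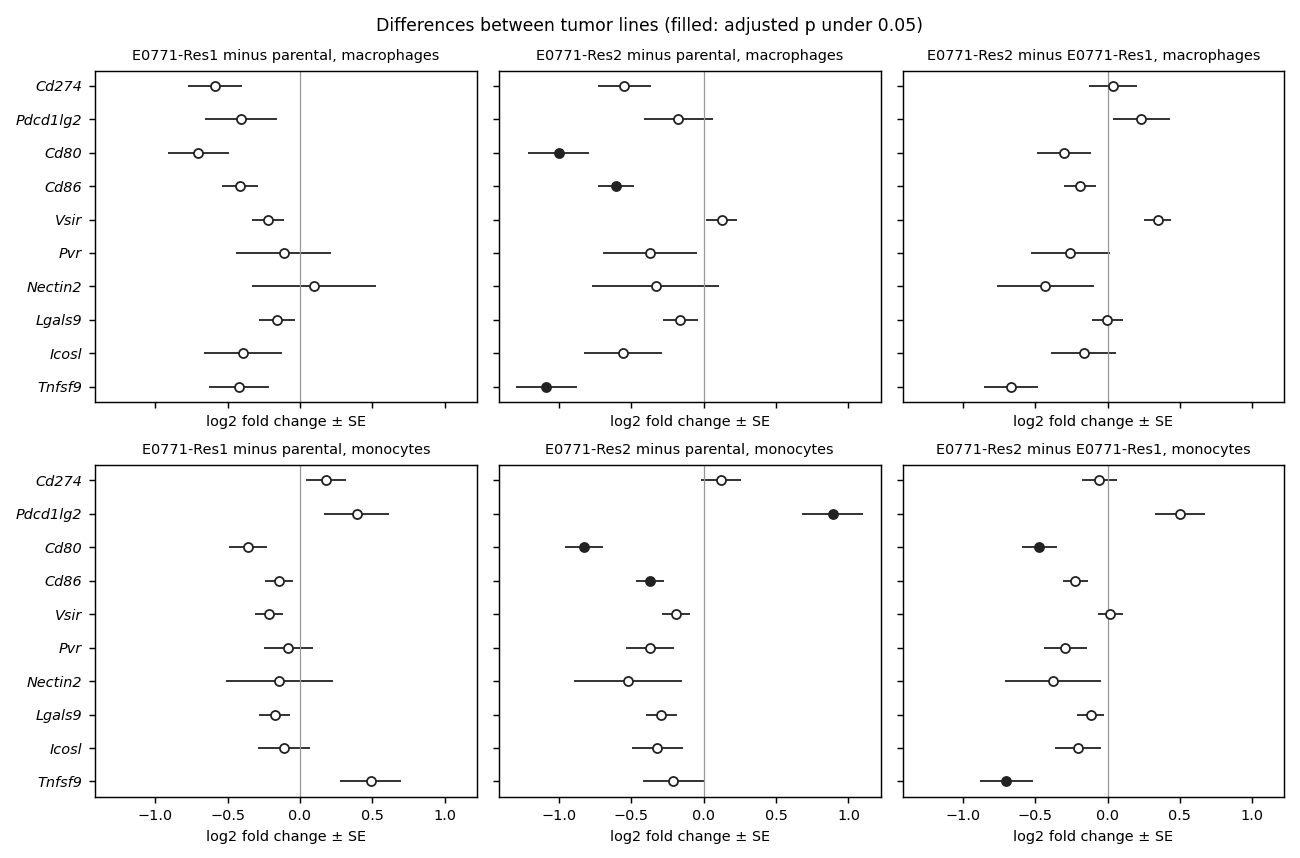
Points give the log2 fold change of each ligand gene between tumor lines for macrophages (top) and monocytes (bottom), filled where the edgeR adjusted p is under 0.05. Bars give a standard error derived from the F statistic of edgeR. Filled points are *Cd80*, *Cd86* and *Tnfsf9* below 0 for E0771-Res2 over parental macrophages, *Cd80* and *Cd86* below 0 and *Pdcd1lg2* above 0 for E0771-Res2 over parental monocytes, and *Cd80* and *Tnfsf9* below 0 for E0771-Res2 over E0771-Res1 monocytes.

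In dendritic cells no ligand was called between tumor lines. In *Cd209a*+ dendritic cells 6 of 10 ligands passed the filter, over the 7 mice with at least 10 cells (without E0771-Res1 replicate 2), and 0 were called in any contrast by edgeR or DESeq2, with 0 at an unadjusted p under 0.05 (at most 0.0406% of 2465 genes called). Of these 2465 genes, 118 to 171 had an edgeR unadjusted p under 0.05, depending on the contrast. In *Ccr7*+ dendritic cells 9 passed, and again 0 were called by either tool (0.0669% of 4482 genes for E0771-Res1 over parental, 0.0892% for E0771-Res2 over parental and between the resistant lines, and 0.156% for both over parental). This fit left out parental replicate 3 and E0771-Res1 replicate 2, and the remaining parental mouse was assumed to vary like the others. *Icosl* was the 1 ligand with an unadjusted p under 0.05, in E0771-Res2 over parental and over E0771-Res1. It was 172, 219 and 160 CPM in the E0771-Res2 mice, 89.9, 18.3 and 78.2 CPM in E0771-Res1 and 97.1 and 37.9 CPM in parental mice, and E0771-Res2 did not overlap with the others. The log2 fold change over E0771-Res1 was 1.09 (SE 0.28, edgeR adjusted p = 0.237), which did not pass the threshold. The 18.3 and 37.9 CPM mice held 1 and 3 UMIs in 8 and 9 cells.

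Shares of positive cells, thinned to 2000 UMIs, gave 40 tests of both resistant lines against parental mice. None passed after adjustment (exact permutation of the mouse labels, two-sided, 28 splits, smallest adjusted p = 0.286), and the smallest p that this design allows is 0.0357. That value was reached 5 times. Genes outside the list were not tested in this way, so no share over all genes stands beside this count. It is therefore no result about the ligands as a group. *Cd86* positive macrophages were 25.0% in parental and 19.0% in resistant tumors and *Cd80* positive macrophages 6.74% and 4.11%. In monocytes the shares were 10.4% and 7.32% for *Cd80*, 25.6% and 21.6% for *Vsir* and 38.3% and 33.1% for *Lgals9*. The *Cd274* share of macrophages was 27.4% in parental and 20.2% in resistant tumors, with overlap between the groups (exact permutation p = 0.0714).

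Among the regulators, *Irf1*, an interferon-induced transcription factor that activates *Cd274*, was lower in macrophages of E0771-Res1 (log2 fold change -0.99, SE 0.16, edgeR adjusted p = 0.0342) and of E0771-Res2 (-0.91, SE 0.16, edgeR adjusted p = 0.00892) than in parental tumors. It was the 1 regulator of 17 tested that was called in E0771-Res1 (0.135% of all genes called) and 1 of 2 in E0771-Res2 (2.08%), where *Relb* was the other, at -0.71 (SE 0.17, edgeR adjusted p = 0.0417). In monocytes 5 of 17 regulators were lower in E0771-Res2 than in parental tumors and none higher, where 2.74% of all genes were called lower and 2.24% higher. Among them were *Jak2* at -0.65 (SE 0.12, edgeR adjusted p = 0.00785), *Hif1a* at -0.52 (SE 0.13, edgeR adjusted p = 0.0267) and *Cmtm6*, which stabilizes PD-L1 at the surface, at -0.47 (SE 0.11, edgeR adjusted p = 0.0265). Of the other ligands, *Cd200* was higher in E0771-Res2 monocytes than in parental ones by 1.95 (SE 0.36, edgeR adjusted p = 0.00686) and in E0771-Res2 over E0771-Res1 macrophages by 2.20 (SE 0.40, edgeR adjusted p = 0.00787), the 1 call of 21 and of 18 tested, where 4.98% and 2.6% of all genes were called. *H2-T23* (Qa-1, a ligand of NKG2A) was lower in macrophages of both resistant lines together, at -0.52 (SE 0.11, edgeR adjusted p = 0.0407), where 0.856% of all genes were called. *Cd200* is also a gene of *Ccr7*+ dendritic cells here, and the part of admixed dendritic cells in its rise was not tested.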

How the data were processed

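Cell numbers and UMIs were taken from the matrices that the authors deposited for each mouse, which hold raw counts of UMIs per gene and cell without normalization. The authors counted reads with Cell Ranger (6.1.2 in the file headers) on mm10, with the cells of each mouse separated by tags. Each matrix held 32285 genes and 9 tags. The tags and the 8636 mitochondrial, Rpl, Rps and Gm genes stayed out of CPM totals and tests. UMIs per cell and the thinning counted all genes but no tags. Over all genes and deposited cells, the sums ran from 5036667 to 18894504 UMIs per mouse.

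Gates were applied in order to cells with 500 to 6000 genes and under 10% mitochondrial counts: T, NK and B or plasmacytoid cells (at least 2 UMIs over lymphoid genes), *Ccr7*+ dendritic cells (at least 1 UMI each of *Ccr7* and *Fscn1*), macrophages (*C1qa* at least 10), *Cd209a*+ dendritic cells (*Cd209a* at least 2) and monocytes (at least 5 UMIs over *Ly6c2*, *Plac8*, *Chil3*, *Vcan* and *Hp*). The T cells used as a background were limited after the values had been seen. Scrublet in scanpy 1.11.5 marked 30 cells (0.262%), which was taken as a failed call, so doublets were kept.

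For each class, counts were added up within a mouse (10 cells or more) and compared in edgeR 4.0.16 (TMM, filterByExpr, quasi-likelihood test, R 4.3.3), with 1 fit over the 3 groups for tumor lines and mouse as a block for classes. A gene was called at an adjusted p below 0.05. Each SE was derived as the absolute log2 fold change divided by the square root of the quasi-likelihood F statistic. For genes with few counts it can be smaller than the p-value implies. DESeq2 1.42.0 was an alternative, and an adjusted p that it did not give stayed missing. The steps were tested on simulated counts. Shares were tested by exact permutation in scipy 1.17.1 under Python 3.11.15. Floors (3 counts) cover counting error only. P-values rest on the spread between mice. Each group carried 1 cell line, so they do not measure a spread between independently raised resistant lines.

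The ligands, the other gene lists and the tests were chosen with earlier results of these data known. All 10 ligands are named, and of the other lists at most 5 called genes per comparison by absolute log2 fold change, of which some are printed. The same rule gave the 5 genes most like *Cd274* and *Cd86*. Some genes that these rules select are not reported here. Receptors were read without a test. Replicates of 1 group differed by more than sampling noise (chi-square per degree of freedom 2.69 to 13.2). Replicate numbers did not pair the mice, since deviations of same-numbered mice correlated at -0.07 to 0.08.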

Additional observations from a re-analysis of the deposited data

Results flagged for a closer look

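The difference between tumor lines was not the same in macrophages and monocytes for *Tnfsf9*. A test of the difference itself, edgeR's quasi-likelihood test with mouse as a block, gave -0.90 on the log2 scale for E0771-Res2 over parental tumors (macrophage effect minus monocyte effect, SE 0.19, adjusted p = 0.0420) and -0.86 for both resistant lines over parental tumors (SE 0.17, adjusted p = 0.0389). The levels behind it were 92.2 CPM ± 3.09 (SD, n = 2) in parental, 74.1 ± 18.6 (n = 3) in E0771-Res1 and 44.3 ± 5.91 (n = 3) in E0771-Res2 macrophages, against 60.7 ± 3.61, 87.0 ± 27.3 and 53.1 ± 1.53 in monocytes. The first was lost in 8 and the second in 10 of 17 alternatives, and both kept their sign in all 17. The E0771-Res2 levels of both classes lay within the 8.96 to 55.7 CPM of the T cells, and the part of free RNA was not tested.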

How the results depend on the processing

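Comparisons of cell classes held best: the counts of ligands called between classes stayed within 1.5 times under all alternatives run, and of the single calls only *Icosl* between macrophages and monocytes (lost in 4 of 18) and *Tnfsf9* between dendritic cell classes (lost in 2 of 18) were lost in any. Between tumor lines, the 3 ligands called in macrophages became 5 with no filter on low counts, 1 with no removal of cells with lymphoid markers, and 0 to 3 with 1 mouse left out. The 4 called in monocytes became 1 with no removal of cells with lymphoid markers and 0 to 4 with 1 mouse left out: 0 without parental replicate 1, and 1 without parental replicate 3, E0771-Res2 replicate 1 or E0771-Res2 replicate 3. The 1 ligand whose line effect differed between macrophages and monocytes became 2 with no filter and 0 with DESeq2, *C1qa* at least 20 UMIs, no removal of cells with lymphoid markers or removal of the highest 5% of Scrublet scores, and 0 to 2 with 1 mouse left out. In dendritic cells the count was 0 in every alternative, including mice with at least 5 cells, added after seeing the data. It was 0 for shares of positive cells too, but with a smallest possible p of 0.0357 and 40 tests that says nothing about stability. No direction of a called ligand reversed in any alternative. The replicate numbers are only names here, and with the replicate number as a block the counts stayed at 3 in macrophages and 4 in monocytes, while *Cd86* for both lines over parental macrophages rose to an adjusted p of 0.0674 (edgeR). The cause of these changes was not tested. With 2 parental mice and 145 and 233 dendritic cells, absent calls between lines say little about these classes. Without any parental mouse, *Ccr7*+ dendritic cells gave no value.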
